A study of Rattus norvegicus with 24 samples.

Results

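Skeletal muscle transcripts were compared between 8 sciatic nerve libraries of embryonic day 21 (E21), out of 24 libraries in the series. The sides were chosen by the Acta1 count itself, scaled to the library's total count as CPM (the usual count scale in sequencing). Libraries at 100 or more formed the muscle-rich side, and libraries under 10 the muscle-poor side. Each side held 4 libraries: Tg replicates 2 and 3 with Wt replicates 2 and 4 on the muscle-rich side, and Tg replicates 1 and 4 with Wt replicates 1 and 3 on the muscle-poor side. The Acta1 values nearest to the limits were 200.2 CPM of the total in Tg replicate 3 and 5.58 CPM of the total in Wt replicate 3. Because this count made the sides, differences between them are given as a description without a test.

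The study sequenced polyA RNA of sciatic nerves from wild-type (Wt) rats and from Pmp22 transgenic (Tg) rats, which carry extra Pmp22 and serve as a model of the neuropathy CMT1A. The ages were E21, postnatal day 6 (P6) and postnatal day 18 (P18), and every genotype had 4 biological replicates at each. The outer sheath of the nerve, the epineurium, was stripped off before freezing, and how many animals entered a library is not given in the sources used here. The transgenic line is SD-Tg(Pmp22)Kan. Total counts were 19239240, 20573352, 16469178 and 25164922 in the muscle-rich libraries, in the order Tg 2, Tg 3, Wt 2 and Wt 4. In the muscle-poor libraries they were 17314549, 15123110, 18476120 and 12513834, in the order Tg 1, Tg 4, Wt 1 and Wt 3. The same orders hold for all values listed by side.

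Acta1 encodes the actin of the skeletal muscle thin filament, and Ckm the creatine kinase that buffers ATP in muscle. Muscle fibres replace their contractile proteins as they mature: embryonic and perinatal myosin heavy chains (Myh3, Myh8) and cardiac actin (Actc1) come first, and adult fast or slow forms follow. A peripheral nerve holds Schwann cells, axons, fibroblasts, vessels and blood, but no skeletal muscle fibres, while embryonic nerve lies close against developing limb muscle.

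From here on levels are CPM scaled by edgeR's TMM method, and a side difference is the difference of mean log2(CPM + 0.5), which understates the change of genes near 0. Acta1 measured 1140.1, 189.5, 432 and 642 CPM on the muscle-rich side and 3.21, 4.74, 1.81 and 5.06 CPM on the muscle-poor side. Ckm measured 244, 32.3, 82.3 and 139 CPM on the muscle-rich side and 0.435, 0.923, 0.425 and 0.506 CPM on the muscle-poor side. Myh2, the fast IIa myosin heavy chain, measured 365, 40.8, 141 and 119.9 CPM on the muscle-rich side and 5.06, 2.58, 2.23 and 2.53 CPM on the muscle-poor side. For each of these 3 genes the lowest muscle-rich library lay far above the highest muscle-poor library, and the side differences were 6.96, 6.54 and 5.20.

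Hbb, the beta chain of haemoglobin, did not separate the sides. It measured 7287, 16589, 20194 and 10049 CPM on the muscle-rich side and 14859.8, 10025, 26017 and 7802 CPM on the muscle-poor side. Both the lowest value (Tg 2) and the second highest (Wt 2) came from muscle-rich libraries and the sides were mixed. Of the 4 markers, Acta1, Ckm and Myh2 thus marked the sides and Hbb did not.

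**Figure D1:**
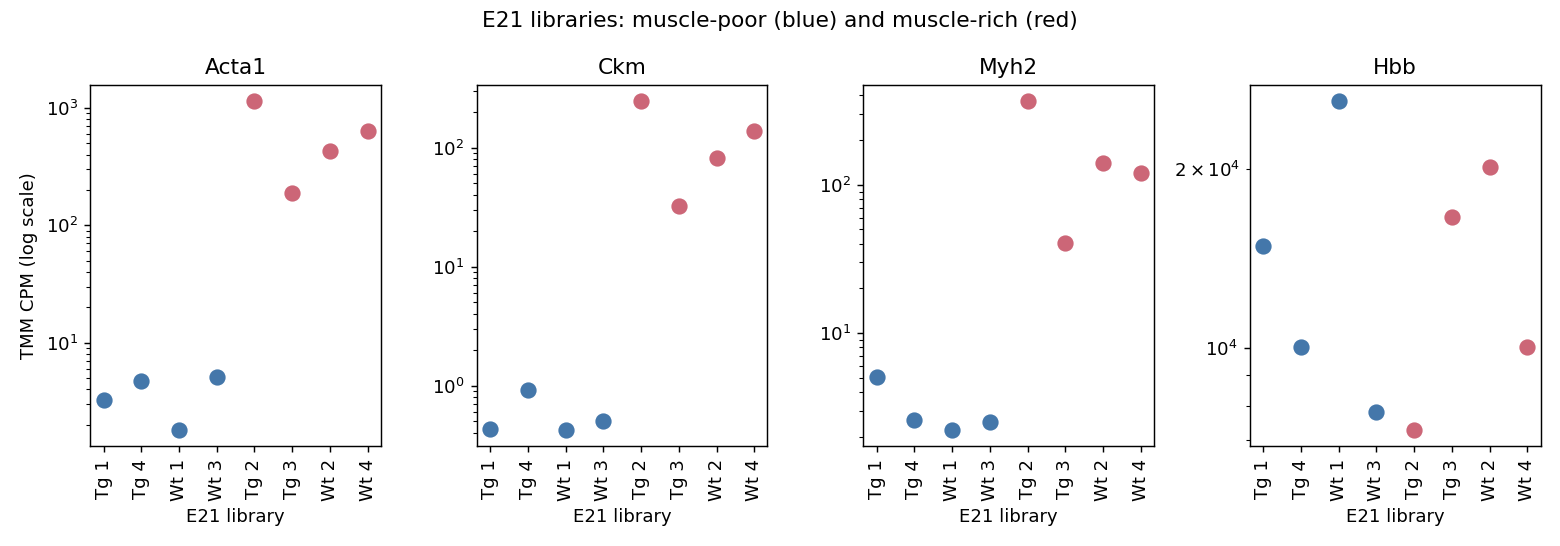
Levels of Acta1, Ckm, Myh2 and Hbb in each of the 8 E21 libraries, in TMM CPM on log axes, with muscle-poor libraries in blue and muscle-rich libraries in red. Acta1 spans 189.5 to 1140.1 CPM in red and 1.81 to 5.06 CPM in blue, whereas the Hbb values of the sides are mixed.

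Of 15761 genes whose normalized counts averaged 5 or more across the E21 libraries, 204 were at least 2-fold higher on the muscle-rich side with no overlap (1.29%), and 1 was lower by the same measure (0.00634%). The median side difference of all 15761 genes was -0.01. Among the 204 genes, 71 belonged to 5 lists of skeletal muscle genes and 133 to none of the 21 lists used here. The muscle lists named 98 genes, of which 94 were matched and 91 passed the count minimum. Tcap, Pax7 and Msc were below it, and Myh1, Myh4, Ttn and Chrng were not analysed here. No gene of the 16 other lists reached 2-fold without overlap in either direction, with 0.5 added to each CPM. Together the muscle lists took 1.14, 0.261, 0.478 and 0.773% of the counts on the muscle-rich side and 0.0968, 0.105, 0.105 and 0.116% on the muscle-poor side. In bulk RNA, more muscle cells and more RNA per muscle cell cannot be told apart.

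The contractile genes were the largest group, with 36 of 41 measured members at least 2-fold higher without overlap and a median difference of 4.05. Myh3, the embryonic myosin heavy chain, measured 977, 176, 381 and 725 CPM on the muscle-rich side and 0.816, 3.26, 0.478 and 2.46 CPM on the muscle-poor side. Its difference of 7.91 was the largest of all lists. Actc1 measured 718, 107, 233 and 491 CPM on the muscle-rich side and 1.96, 2.34, 0.212 and 2.46 CPM on the muscle-poor side. Myh8, the perinatal myosin heavy chain, measured 405, 35.1, 59.6 and 136 CPM on the muscle-rich side and 0.381, 0.492, 0 and 1.08 CPM on the muscle-poor side. Tg 2 was the highest library and Tg 3 the lowest muscle-rich library for all 3 genes. Tpm1, a tropomyosin that many cell types use, had the highest mean CPM of the list over the 8 libraries and differed by 0.45, with 480.5, 393, 423 and 498 CPM on the muscle-rich side and 268, 316, 365 and 372 CPM on the muscle-poor side. Tpm3, a tropomyosin of slow fibres and of non-muscle cells, ranged from 222 to 269.8 CPM and from 228 to 246 CPM, and the sides overlapped.

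Genes of excitation-contraction coupling, which link the membrane potential to calcium release, were higher in 14 of 17 members, with a median difference of 3.13. Srl, the sarcoplasmic reticulum protein sarcalumenin, led them with 191, 23.2, 46.2 and 108 CPM on the muscle-rich side and 0.816, 0.923, 0.850 and 2.24 CPM on the muscle-poor side. Jph1, which ties the reticulum to the cell membrane, overlapped between the sides at 7.96 to 17.0 CPM and 5.84 to 8.21 CPM. In the muscle forms of energy metabolism 8 of 12 members were higher, with a median difference of 3.34. Pfkm, a phosphofructokinase, had the highest mean CPM of them over the 8 libraries and overlapped, at 83.8 to 154 CPM against 78.3 to 91.1 CPM. Pvalb, the calcium buffer of adult fast fibres, stayed at or below 0.460 CPM in all 8 libraries.

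Regulators of muscle formation were higher in 8 of 11 measured members, with a median difference of 2.41. Myog, which drives myoblasts into differentiation, measured 41.0, 5.38, 5.01 and 26.8 CPM on the muscle-rich side and 0.0544, 0.431, 0.212 and 0.506 CPM on the muscle-poor side. Tmem8c, the membrane protein that fuses myoblasts, measured 27.1, 4.69, 5.66 and 10.7 CPM on the muscle-rich side and 0.0544, 0.123, 0 and 0.0723 CPM on the muscle-poor side. Myod1, which commits cells to the muscle lineage, measured 7.42, 1.29, 1.53 and 5.44 CPM on the muscle-rich side and 0.163, 0.246, 0.0531 and 0.289 CPM on the muscle-poor side. All 3 were near 0 in the muscle-poor libraries. Pax7, the marker of satellite cells, was between 0.0460 and 0.388 CPM on the muscle-rich side and at 0 on the muscle-poor side, which is too few counts to compare. Six4, a homeobox gene, gave the smallest difference of the list (0.45), and Des, the intermediate filament of muscle, had its highest mean CPM over the 8 libraries, with 191, 47.5, 109.9 and 122 CPM on the muscle-rich side and 11.5, 13.7, 14.5 and 16.4 CPM on the muscle-poor side.

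On the muscle side of the neuromuscular junction 5 of 10 measured genes were higher, with a median difference of 1.12. Chrnd, the delta subunit of the acetylcholine receptor, measured 14.5, 2.16, 2.89 and 8.04 CPM on the muscle-rich side and 0.109, 0.246, 0 and 0 CPM on the muscle-poor side. Chrne, the subunit of the adult receptor, was between 0.414 and 1.24 CPM and between 0.369 and 0.956 CPM, with overlap. Lrp4, the agrin receptor, had the highest mean CPM of the list and lay between 61.1 and 72.7 CPM in all 8 libraries.

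**Figure D2:**
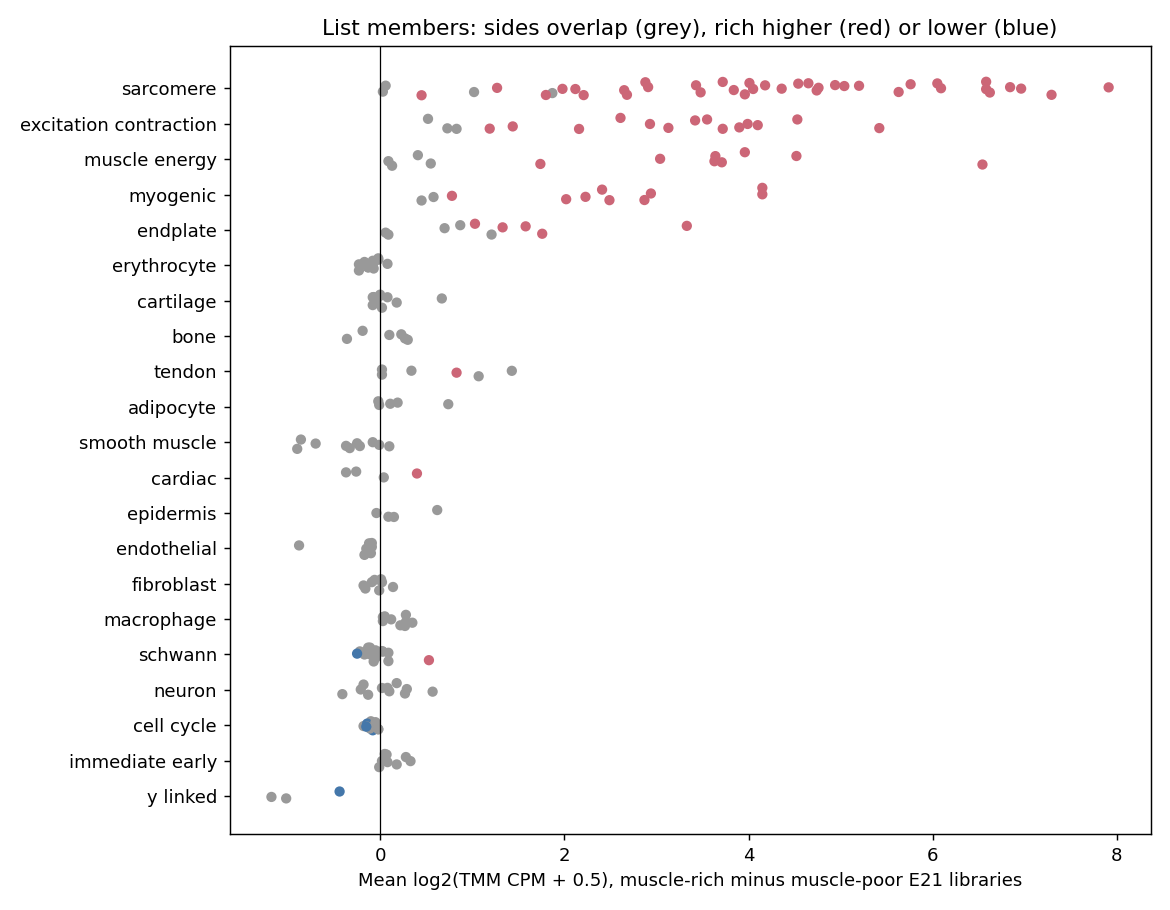
Side difference of each list member that passed the count minimum, 1 point a gene, as the mean log2(TMM CPM + 0.5) of the 4 muscle-rich libraries minus that of the 4 muscle-poor libraries. Points of the 5 muscle lists reach 7.91, whereas the median of the Schwann cell list is -0.06 and that of the erythrocyte list -0.08.

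Genes most like Acta1 were ranked by the SD, over the 8 E21 libraries, of the log2 ratio of their CPM to that of Acta1. Mybpc1, a myosin-binding protein of the thick filament, came first with an SD of 0.242. Mylpf, the light chain of fast myosin, followed with 0.270, and Actc1 with 0.384. Ckm, Car3, Myl1, Myh8, Tnnc2, Myh3 and AABR07052585.2 completed the 10, with SDs from 0.396 to 0.610. Car3, a carbonic anhydrase of muscle and fat, measured 231, 40.3, 145 and 183 CPM on the muscle-rich side and 0.326, 1.17, 0.584 and 0.939 CPM on the muscle-poor side. AABR07052585.2 has no descriptive name in the annotation and measured 129, 18.2, 34.7 and 91.9 CPM on the muscle-rich side and 0.109, 0.554, 0.212 and 0.217 CPM on the muscle-poor side.

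Other genes among the 15 largest differences were Actn2, Tnnt3, Tnni2 and Tceal7. Actn2, which anchors thin filaments, measured 242, 37.0, 73.0 and 173 CPM on the muscle-rich side and 2.18, 0.615, 0.425 and 1.66 CPM on the muscle-poor side. Tnnt3, the fast skeletal troponin T, measured 451, 73.2, 223 and 248 CPM on the muscle-rich side and 3.26, 3.14, 2.50 and 4.77 CPM on the muscle-poor side. Tnni2, the fast troponin I, measured 158, 28.9, 96.5 and 88.7 CPM on the muscle-rich side and 1.03, 1.23, 0.743 and 1.52 CPM on the muscle-poor side. Tceal7 measured 58.3, 16.1, 50.1 and 41.3 CPM on the muscle-rich side and 0.218, 0.738, 0.212 and 0.361 CPM on the muscle-poor side. In each of the 4 the muscle-poor values stayed below 5 CPM while the muscle-rich values began at 16.1 CPM or more. Among genes outside the lists, Mstn, which limits muscle growth, was chosen after its values were seen and measured 17.6, 0.828, 0.826 and 2.05 CPM on the muscle-rich side and 0.109, 0, 0.0531 and 0 CPM on the muscle-poor side. Fgfr4, a growth factor receptor of muscle precursors chosen the same way, measured 16.4, 3.08, 1.77 and 9.20 CPM on the muscle-rich side and 0.326, 0.246, 0.212 and 0.217 CPM on the muscle-poor side. Both were higher in every muscle-rich library.

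Without a fold minimum 455 genes were higher and 344 lower on the muscle-rich side without overlap, and 1 of the lower genes reached 2-fold. LOC100910990, that gene, measured 0, 0, 0 and 12.6 CPM on the muscle-rich side and 37.6, 21.3, 18.3 and 49.9 CPM on the muscle-poor side. It was at 0 in 3 of 4 muscle-rich libraries and at 12.6 CPM in the other, and a pattern of this kind can come from reads divided among near-identical genes, so its level is uncertain. Unc13c, a gene of synaptic vesicle priming, measured 13.1, 13.7, 13.3 and 17.2 CPM on the muscle-rich side and 32.0, 21.2, 19.0 and 22.8 CPM on the muscle-poor side. Kcnd3, a potassium channel subunit, measured 46.7, 47.4, 48.1 and 47.2 CPM on the muscle-rich side and 70.2, 72.3, 58.7 and 67.0 CPM on the muscle-poor side. Their side differences were -0.69 and -0.49.

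The promoters of genes that moved together at E21 were read from RefSeq (GRCr8), while the counts were made on rn6. The 250 bases before the gene start are shown for Acta1, which made the sides, Ckm, another marker, and Myh3, the gene with the largest difference. Capitals mark the E-box CAGCTG, which the myogenic factors bind, and the CArG box, which serum response factor binds, both searched on both strands.
Acta1, chr19:68784195-68784444, minus strand: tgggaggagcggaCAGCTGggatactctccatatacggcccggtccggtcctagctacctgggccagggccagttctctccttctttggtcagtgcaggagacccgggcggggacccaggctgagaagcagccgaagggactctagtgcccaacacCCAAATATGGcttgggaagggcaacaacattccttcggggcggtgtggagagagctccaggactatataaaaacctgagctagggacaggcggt
Ckm, chr1:88189211-88189460, plus strand: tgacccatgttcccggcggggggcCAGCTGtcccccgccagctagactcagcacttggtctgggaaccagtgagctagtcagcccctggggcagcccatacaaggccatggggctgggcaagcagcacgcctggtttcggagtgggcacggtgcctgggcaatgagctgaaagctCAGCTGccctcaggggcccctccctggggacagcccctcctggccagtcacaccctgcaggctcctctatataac
Myh3, chr10:52268935-52269184, plus strand: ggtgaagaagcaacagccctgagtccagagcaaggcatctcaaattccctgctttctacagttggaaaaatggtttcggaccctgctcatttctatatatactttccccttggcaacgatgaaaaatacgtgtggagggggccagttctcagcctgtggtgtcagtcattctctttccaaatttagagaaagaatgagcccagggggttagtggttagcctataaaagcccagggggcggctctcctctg
Acta1 held 1 E-box and 1 CArG box, and Ckm held 2 E-boxes. Of the 7 promoters looked at, the other 5 (Myh3, Actc1, Myog, Actn2 and Tnnc2) held neither CAGCTG nor a CArG box. Mylpf and Tnnt3 were not matched. Only the form CAGCTG was searched, so other forms of the E-box were not counted. The genes and motifs were chosen after the side values were seen, and the 3 printed promoters after the motifs were seen. Of 27457 promoters of this length, 11.9% held the E-box and 1.5% the CArG box. In the muscle lists 27 of 77 matched promoters held the E-box (35.1%) and 5 the CArG box (6.49%). Among genes higher on the muscle-rich side, 44 of 153 matched promoters held the E-box (28.8%) and 6 the CArG box (3.92%). These counts describe letters in a window and were not tested.

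The 4 muscle-rich libraries did not carry the same muscle mixture. Myh7, the slow myosin heavy chain, measured 2.04, 5.98, 1.47 and 92.4 CPM on the muscle-rich side and 2.07, 2.46, 1.22 and 0.795 CPM on the muscle-poor side. Myl3, a slow light chain, measured 5.96, 3.54, 10.4 and 51.2 CPM on the muscle-rich side and 0.163, 0.0615, 0.106 and 0.361 CPM on the muscle-poor side. Tnnt1, the slow troponin T, measured 48.8, 11.7, 16.8 and 105 CPM on the muscle-rich side and 0.598, 0.923, 0.690 and 1.01 CPM on the muscle-poor side. Wt 4 was the highest library for all 3, and for Myh7 Tg 2 and Wt 2 lay within the muscle-poor range. In CPM, other genes of slow fibres were divided. On the muscle-rich side Tnni1, the slow troponin I, measured 95.2, 14.5, 33.5 and 80.1 CPM and Casq2, a calcium-binding protein, 128, 21.9, 49.1 and 74.4 CPM, both highest in Tg 2. Tnnc1, the slow troponin C, measured 46.9, 10.4, 12.7 and 57.5 CPM, Myoz2, a Z-disc protein, 11.1, 4.19, 7.55 and 21.8 CPM and Myl2, a slow light chain, 0.0485, 0.322, 0.177 and 5.66 CPM, all 3 highest in Wt 4. Myl3, Tnnt1, Tnni1, Casq2, Tnnc1, Myoz2, Myl2 and Actn3 were chosen after their values were seen. Tg 2, which had the most Acta1, had 2.04 CPM of Myh7, and Wt 4 had 92.4 CPM. As a percent of Acta1 CPM, Tnni1 was highest in Wt 4, at 8.35, 7.67, 7.76 and 12.5%. Relative to Acta1, Myog stood at 3.60, 2.84, 1.16 and 4.17% and Actn3, the alpha-actinin of fast fibres, at 1.31, 1.85, 3.48 and 0.887%. Wt 2 was lowest for Myog and highest for Actn3.

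Of 6 measured tendon genes, 0 were 2-fold higher without overlap with 0.5 added to each CPM, and 1 (Scx) was higher without overlap at any fold. Tnmd, a membrane protein of tendon cells, measured 22.1, 14.8, 2.12 and 21.4 CPM on the muscle-rich side and 3.26, 2.89, 4.57 and 5.27 CPM on the muscle-poor side. Fmod, a proteoglycan of tendon, measured 9.40, 7.64, 1.47 and 11.4 CPM on the muscle-rich side and 1.41, 1.72, 2.87 and 6.29 CPM on the muscle-poor side. For Tnmd, 3 of 4 muscle-rich libraries stood above all muscle-poor ones, and Wt 2 was the lowest of all 8. For Fmod the same 3 libraries stood above all muscle-poor ones, and Wt 2 was next to the lowest. Scx, a tendon transcription factor, was below 1 CPM in all 8 libraries, at 0.413 to 0.730 CPM against 0.0531 to 0.185 CPM, where the added 0.5 holds its difference under 2-fold. Thbs4, the tendon gene with the highest mean CPM, overlapped at 264 to 331 CPM and 252 to 326 CPM. Summed over the list, tendon genes measured 388, 325, 298 and 370.3 CPM and 279.9, 347, 369 and 305 CPM, which overlapped. Fmod and Scx were chosen after their values were seen.

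**Figure D3:**
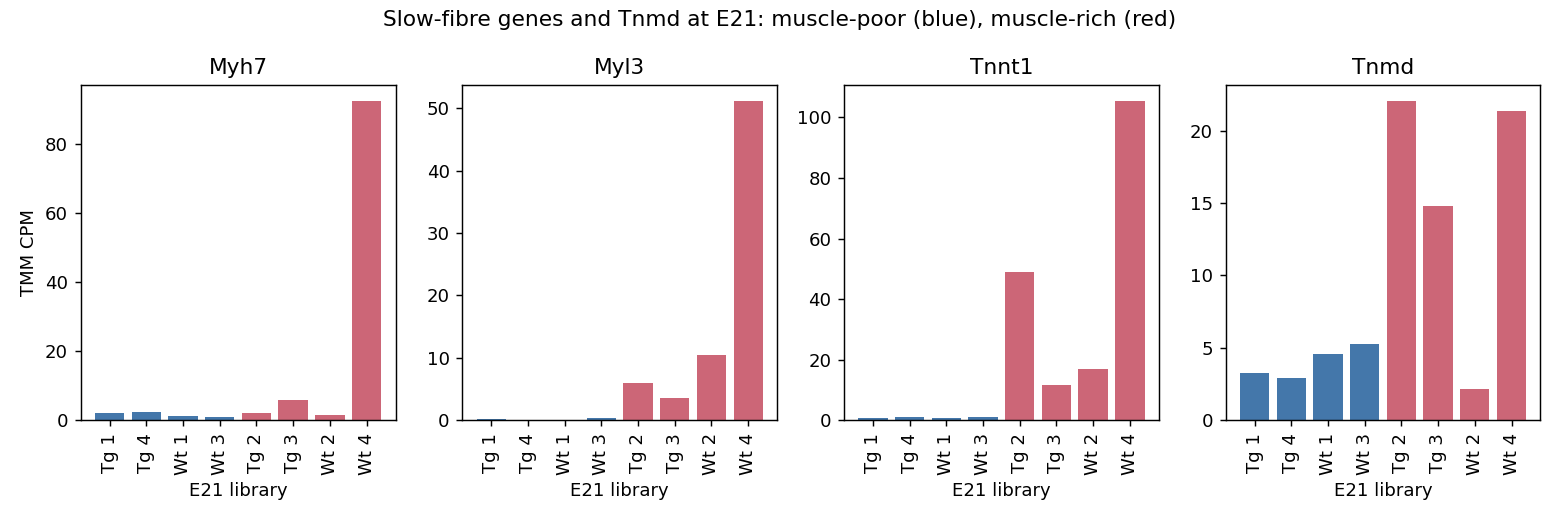
Myh7, Myl3, Tnnt1 and Tnmd in the E21 libraries, in TMM CPM from 0, with muscle-poor libraries in blue and muscle-rich libraries in red. Wt 4 stands at 92.4 CPM for Myh7, and Wt 2 at 2.12 CPM for Tnmd.

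Markers of other embryonic tissues overlapped. Erythrocyte genes summed to 13299, 29638, 34339 and 16234 CPM and 25026, 17018, 42847 and 12434 CPM, and 0 of 12 measured members separated the sides. Col2a1, the collagen of cartilage, lay between 306 and 453 CPM and between 238 and 399 CPM. Alpl, an enzyme of bone formation, spanned 7.82 to 11.1 CPM. Neither gene followed Acta1. Fabp4, a fatty acid carrier of adipocytes, was at 64.5 to 99.4 CPM and 76.3 to 99.0 CPM. Krt10, a keratin of epidermis, stayed between 5.15 and 7.44 CPM. Myh6, a cardiac myosin heavy chain, was at 13.9 to 19.0 CPM and 17.5 to 21.8 CPM. These ranges overlapped for each of the 5 genes. Among cardiac genes Tnni3 was higher without overlap, under 2-fold. Over the 16 other lists the median difference ran from -1.02 (Y-linked genes, 3 measured) to 0.59 (tendon genes). The Y-linked sums were 0.388, 78.8, 176 and 88.4 CPM on the muscle-rich side and 60.8, 70.0, 145 and 48.9 CPM on the muscle-poor side. Tg 2 alone was near 0, so the low median of this list rests on that library. Eif2s3y, its most abundant member, measured 0.0970, 53.1, 127 and 60.4 CPM on the muscle-rich side and 32.4 to 102 CPM on the muscle-poor side. Ddx3y was lower without overlap, under 2-fold, at 0.118 to 0.292 CPM against 0.361 to 0.584 CPM.

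Of 10 smooth muscle genes and 7 endothelial genes measured, 0 separated the sides in either direction. Pdgfrb, a receptor of mural cells, lay at 303 to 374 CPM and 321 to 355 CPM, and Smtn, smoothelin, at 74.1 to 92.0 CPM and 68.1 to 78.2 CPM, both highest in Tg 2. Myh11, the smooth muscle myosin heavy chain, chosen after its values were seen, measured 15.1, 74.6, 13.7 and 57.7 CPM on the muscle-rich side and 28.6, 48.0, 62.1 and 117 CPM on the muscle-poor side. Cnn1, a calponin of the same cells, measured 0.582, 7.36, 0.590 and 4.57 CPM on the muscle-rich side and 2.01, 3.51, 5.15 and 9.47 CPM on the muscle-poor side. Cldn5, a tight junction protein from the endothelial list, measured 0.582, 13.9, 4.01 and 9.20 CPM on the muscle-rich side and 6.20, 5.29, 14.0 and 13.5 CPM on the muscle-poor side. Tg 2 and Wt 2 were the lowest libraries for Myh11, Cnn1 and Cldn5, and the sides overlapped. The summed lists measured 741, 1025, 556 and 871 CPM and 697, 802, 851 and 1112 CPM for smooth muscle and 430.1, 600.2, 502 and 594 CPM and 625, 509, 549 and 641 CPM for endothelium.

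Most measured genes of the nerve's own cells overlapped as well. Sox10, a transcription factor of Schwann cells, lay at 166 to 262 CPM and 159 to 226 CPM, so that all 8 libraries carried this marker of nerve. Col3a1, a fibroblast collagen, lay at 14272 to 19418 CPM and 15439 to 18702 CPM. Lyz2, a lysozyme of macrophages, lay at 110.4 to 117 CPM and 96.7 to 152 CPM. Among 15 measured Schwann cell genes, Egr2, a regulator of myelination, was higher without overlap by 0.53 and Mal, a myelin protein, was lower without overlap with a difference of -0.25. Neither reached 2-fold. Nefl, a neurofilament of axons, ranged from 29.1 to 41.7 CPM and from 24.3 to 33.3 CPM. Top2a, expressed by dividing cells, ranged from 465 to 519.6 CPM and from 497 to 601 CPM. Nr4a1, induced within minutes of stress, ranged from 110.0 to 160.1 CPM and from 90.7 to 149.6 CPM. For these 3 genes the sides overlapped, and 3 of 10 cell cycle genes were lower without overlap, all under 2-fold, beside 344 of all 15761 genes.

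Each side held 2 libraries of each genotype, so genotype could be compared with the sides in balance. Pmp22 itself measured 1555, 1661, 1401 and 1617 CPM in Tg and 1392, 1309, 1261 and 1259.8 CPM in Wt replicates 1 to 4. Every Tg library was above every Wt library, by a narrow margin, and the log2 fold change was 0.26 ± 0.07 (SE, n = 4 per genotype; edgeR's quasi-likelihood test, Benjamini-Hochberg adjusted p = 0.603), which does not pass 0.05. DESeq2 gave 0.25 ± 0.05 (SE), adjusted p = 0.000545. Across 15951 genes edgeR called 2 (0.0125%), Hspg2 and AC130064.1. Hspg2, the basement membrane proteoglycan perlecan, measured 242, 252, 245 and 297 CPM in Tg and 103, 76.4, 106 and 117 CPM in Wt, a log2 fold change of 1.36 ± 0.17 (SE, n = 4 per genotype; edgeR's quasi-likelihood test, Benjamini-Hochberg adjusted p = 0.000615). AC130064.1 was at 0.381, 0.582, 0.506 and 0.800 CPM in Tg and 0 in Wt, too few counts for a fold change. At P6 it was at 9.73 to 14.6 CPM in Tg and 0 in Wt, and at P18 at 11 to 12.2 CPM in Tg and 0.0879 CPM or less in Wt.

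Between genotypes edgeR called 0 of the 90 muscle genes it tested, and DESeq2 0 of 89. At an unadjusted p under 0.05, edgeR counted 3 of these genes, beside 705 of all 15951 genes, and DESeq2 0. Without Tg replicate 2 edgeR counted 29 of 88 at an unadjusted p under 0.05, beside 666 of all 15938 genes, and called 0. The median log2 fold change of the muscle genes was 0.18, and with 1 E21 library left out it ran from -1.86 (without Tg 2) to 1.05 (without Wt 4). The summed muscle lists measured 912, 10674, 2475 and 981 CPM in Tg and 1026, 4646, 1051 and 7104 CPM in Wt, with low and high libraries in both genotypes. Their mean log2 sums of 11.11 and 11.25 differed by -0.15 (exact 2-sided permutation test, p = 0.857, n = 4 and 4, smallest possible p = 0.0286). The sums hold Acta1, and each side holds 2 libraries of each genotype. The outcome was thus largely set before the test, and no conclusion is drawn from it. The same balance bears on the calls of muscle genes between genotypes. With the side as a term in a fit of the E21 libraries, edgeR called 1 gene, Hspg2, at a log2 fold change of 1.36 ± 0.12 (SE) and a Benjamini-Hochberg adjusted p of 0.0277 in edgeR's quasi-likelihood test. With log2 Acta1 CPM as a covariate the same gene was called, at 1.36 ± 0.12 (SE) and a Benjamini-Hochberg adjusted p of 0.0181 in edgeR's quasi-likelihood test. In the fit with muscle-poor E21 libraries alone edgeR called 0 genes, with 509 at an unadjusted p under 0.05, and in that with muscle-rich E21 libraries alone 2. Those fits have 2 libraries per genotype at E21, and the log2 fold change of Hspg2 was 1.36 ± 0.25 (SE) and 1.35 ± 0.26 (SE), with edgeR adjusted p of 0.237 and 0.289. Over all alternatives the adjusted p of Hspg2 ran from 1.82e-11 (DESeq2) to 0.289. DESeq2 was not run on these subsets.

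Age was compared over all libraries, since muscle at E21 enters that contrast. Of the 90 muscle genes edgeR called 78 lower at P6 than at E21, where 33.7% of all genes were called lower, and 4 higher, where 33.1% were called higher. Their median log2 fold change was -3.24, against 0.01 over all genes tested. Without the muscle-rich E21 libraries 71 muscle genes passed the count minimum. The others passed it through libraries where they are high, so their fall was set in advance. With only the muscle-poor E21 libraries in the fit, 11 of 71 tested muscle genes were lower (31.1% of all genes) and 17 higher (27.8% of all genes), and the median was 0.48. With only the muscle-rich libraries, 82 of 91 were lower (32.7% of all genes) and 1 higher (27.1% of all genes). The E21 libraries of these last fits were selected on Acta1, so the calls on muscle genes were largely set by that choice. The number of muscle genes tested changed with it too (71 and 91). These counts describe what the choice of libraries does to the age contrast and were not compared by a test. No conclusion about age is drawn from them.

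From P6 to P18 edgeR called 3 of 90 lower (25.8% of all genes) and 9 higher (24.3% of all genes), with a median log2 fold change of 0.04 over members that moved both ways. The 9 became 12 with DESeq2, 14 without E21 Tg 2 and 5 without P6 Tg 3, Tg 4, Wt 2 or Wt 4, each left out alone. With library totals 5 muscle genes were lower and 7 higher, beside 6079 lower and 2769 higher of all 15937 genes. With the muscle-poor E21 libraries only, 9 of 71 were lower and 17 higher, beside 3872 lower and 3922 higher of all 15820 genes. With the muscle-rich E21 libraries only, 5 of 91 were lower and 15 higher, beside 3915 lower and 3942 higher of all 15972 genes. Some of the 90 muscle genes passed the count minimum only through muscle-rich E21 libraries, since 71 passed it without them. Genes of that kind near 0 at P6 and P18 could hardly be called. The E21 libraries also enter the estimate of spread, so no conclusion about muscle genes is drawn from these shares. Myh8 was lower at P18, with a log2 fold change of -6.93 ± 2.64 (SE, n = 8 per age; edgeR's quasi-likelihood test, Benjamini-Hochberg adjusted p = 0.0332). Myh8 lay between 0.0903 and 20.9 CPM at P6 and at 0.301 CPM or less at P18. Its P18 counts are too few to give the size of the change. Pvalb was higher, with a log2 fold change of 2.38 ± 0.50 (SE, n = 8 per age; edgeR's quasi-likelihood test, Benjamini-Hochberg adjusted p = 0.000350). Pvalb measured 0.394, 0.497, 0.404, 0.400, 0.623, 0.939, 0.379 and 0.369 CPM in P6 Tg 1 to 4 and Wt 1 to 4, and 2.49, 0.945, 0.717, 0.765, 3.52, 17.1, 0.709 and 1.21 CPM at P18 in the same order. The highest Pvalb value came from P18 Wt 2.

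The later ages, which the choice of sides did not use, held libraries with Acta1 as well. Acta1 measured 38.0, 3.21, 12.1 and 5.41 CPM in P6 Tg 1 to 4 and 59.4, 28.6, 8.04 and 6.36 CPM in P6 Wt 1 to 4. At P18 it measured 10.9, 0.567, 0.598 and 0.904 CPM in Tg 1 to 4 and 10.8, 130.1, 0 and 1.14 CPM in Wt 1 to 4. P18 Wt 2 stood apart from the other P18 libraries. Ckm in P18 Wt 2 was 42.2 CPM, and the other 7 P18 libraries had at most 4.58 CPM. Of the 204 genes higher on the E21 muscle-rich side, 67 were at least 2-fold above the median of the other P18 libraries in P18 Wt 2, as were 271 of all 15761 genes.

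The sum of other muscle genes was set against Acta1 at each of these ages, and single genes were not tested. The summed contractile, coupling and energy genes without Acta1 correlated with Acta1, both as log2 values, over the 8 P6 libraries (Pearson r = 0.957, exact permutation p = 0.000223, adjusted over 4 relations 0.000893). Spearman's rho was 0.929 (exact permutation p = 0.00223, adjusted 0.00893). Without the 2 libraries farthest from the median Acta1, r was 0.900 (exact permutation p = 0.0208, n = 6). Over the 8 P18 libraries r was 0.880 (exact permutation p = 0.00632, adjusted 0.0126) and rho 0.857 (exact permutation p = 0.0107, adjusted 0.0214). Without the 2 farthest P18 libraries r was 0.895 (exact permutation p = 0.00972, n = 6). Leaving out P18 Wt 2 alone gave r = 0.651, which does not pass 0.05, and leaving out P18 Tg 1 alone gave r = 0.968. Spearman's rho without the 2 farthest libraries was 0.83 at each age (exact permutation p = 0.0583, n = 6), which does not pass 0.05. The muscle sum also holds Tpm1 and Tpm3, which other cells use, and Pfkm, which overlapped between the E21 sides. In P6 Tg 1 these genes measured 240, 175 and 130 CPM. The contractile list with Acta1 summed to 684 CPM there, and the energy list to 164 CPM. P18 Tg 2, Tg 3, Tg 4, Wt 3 and Wt 4 had only 9, 10, 13, 0 and 18 counts of Acta1.

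Erythrocyte genes showed no such relation that passed the test. Their sum against Acta1 gave r = -0.339 at P6 (exact permutation p = 0.415, adjusted 0.444, n = 8) and r = -0.313 at P18 (exact permutation p = 0.444, adjusted 0.444, n = 8). Spearman's rho was -0.333 (exact permutation p = 0.428, adjusted 0.571) and -0.0714 (exact permutation p = 0.882, adjusted 0.882). Without the 2 farthest libraries r was 0.000349 at P6 (exact permutation p = 1.0, n = 6) and 0.306 at P18 (exact permutation p = 0.503, n = 6), and rho was -0.0857 (exact permutation p = 0.919) and 0.60 (exact permutation p = 0.242).

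**Figure D4:**
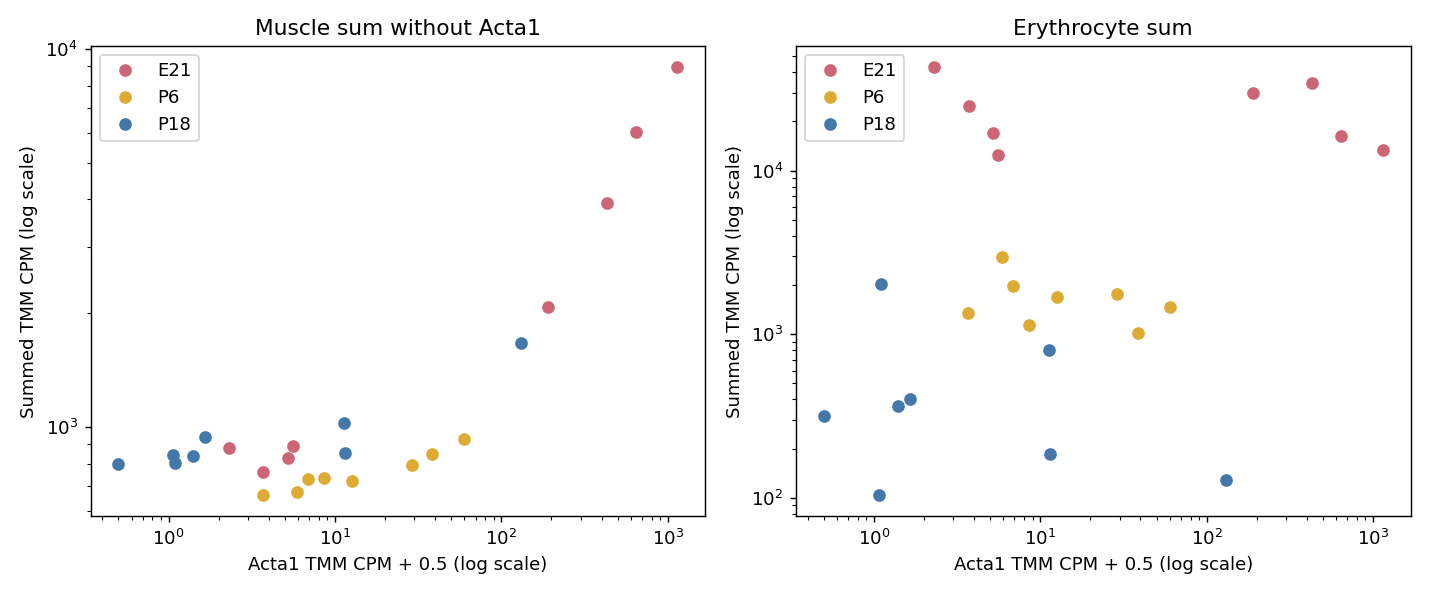
Summed contractile, coupling and energy genes without Acta1 (left) and summed erythrocyte genes (right) against Acta1, 1 point a library, all in TMM CPM on log axes, with E21 in red, P6 in yellow and P18 in blue. Over the P6 points r is 0.957 on the left and -0.339 on the right.

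Several muscle genes stood at other levels relative to Acta1 at each age. Relative to Acta1, for genes chosen after their values were seen and only in the 11 libraries with at least 10 CPM of Acta1, Myh3 stood at 85.7, 92.7, 88.1 and 113% in the muscle-rich E21 libraries. It stood at 27.6, 19.6, 38.9 and 12.3% in P6 Tg 1, Tg 3, Wt 1 and Wt 2, and at 2.94, 2.44 and 0.695% in P18 Tg 1, Wt 1 and Wt 2. Actc1 stood at 63.0, 56.3, 53.9 and 76.5%, then 7.25, 6.22, 7.86 and 6.70%, then 1.47, 1.63 and 1.11%, in the same libraries. For Myh3 and Actc1 every E21 library stood above every P6 library, and every P6 library above every P18 library. Actc1 in P6 Tg 3 was at 0.751 CPM, within the 0.0903 to 0.758 CPM of P6 libraries under 10 CPM of Acta1. Myh3 in P18 Tg 1 and Wt 1 was at 0.321 and 0.264 CPM, within the 0 to 0.417 CPM of such P18 libraries. The ratios of these genes in these libraries are therefore uncertain. Myh8 was at 35.5, 18.5, 13.8 and 21.2% at E21, 36.6, 25.4, 35.1 and 52.8% at P6 and 0, 0 and 0.232% at P18, so that the perinatal form held through P6.

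Other genes had other courses. Myh2 stood at 32.0, 21.5, 32.7 and 18.7% of Acta1 at E21, 45.3, 43.1, 31.1 and 39.4% at P6 and 106, 117 and 127% at P18. Actn3 stood at 1.31, 1.85, 3.48 and 0.887%, 6.39, 8.13, 5.77 and 9.99% and 16.9, 23.6 and 15.1%. For Actn3 the ages did not overlap, and for Myh2 the E21 and P6 values met. Actn3 in P6 Tg 3 was at 0.982 CPM, within the 0.410 to 0.986 CPM of P6 libraries under 10 CPM of Acta1. Its ratio in that library is therefore uncertain. Myl3 stood at 0.523, 1.87, 2.42 and 7.97%, 0.173, 1.44, 0 and 0.285% and 0.735, 1.63 and 0.695%, and did not rise with age. Pvalb stood at 0.0340, 0.243, 0.0546 and 0.0398%, 1.04, 3.35, 1.05 and 3.28% and 22.8, 32.5 and 13.2%. The CPM of Pvalb overlapped between the E21 sides, and in P6 Tg 1 and Tg 3 they lay within the range of P6 libraries under 10 CPM of Acta1, so its E21 and P6 ratios were not compared. Mylpf kept a narrow range, from 29% to 59.5% over the 11 libraries. These ratios compare libraries within a gene, since gene lengths were not used, and the libraries were chosen after their Acta1 values were seen. Acta1 was near 10 CPM in P6 Tg 3 (12.1 CPM), P18 Tg 1 (10.9 CPM) and P18 Wt 1 (10.8 CPM). Where Acta1 is that low, RNA of these genes from other cells cannot be told apart from that of muscle.

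**Figure D5:**
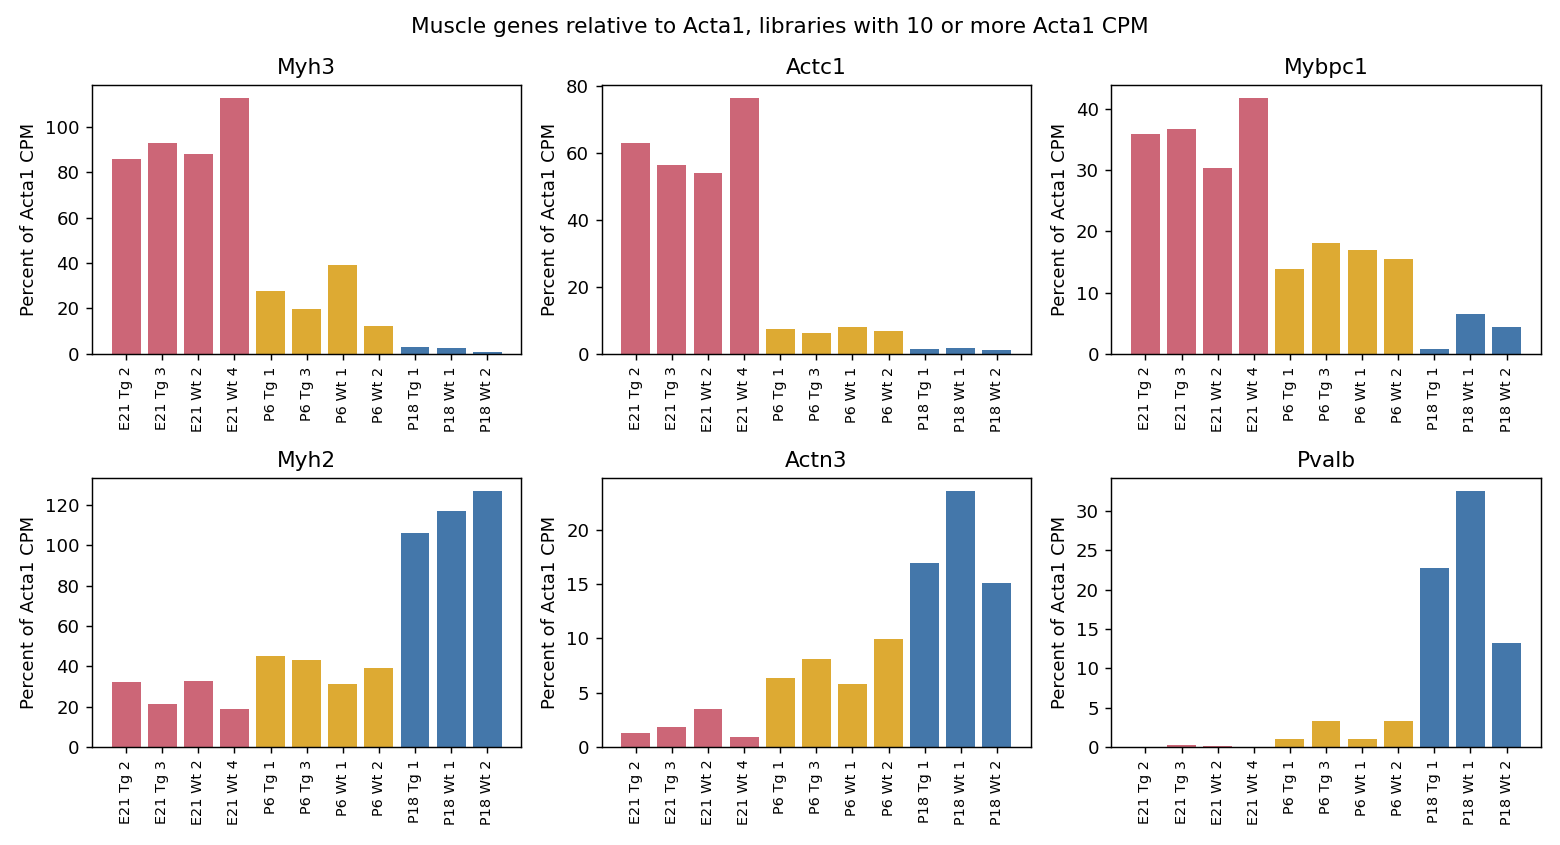
Myh3, Actc1, Mybpc1, Myh2, Actn3 and Pvalb as a percent of Acta1 CPM in the 11 libraries with at least 10 CPM of Acta1, bars from 0, coloured by age. Actc1 falls from 53.9% or more at E21 to 1.63% or less at P18. Actn3 is at 3.48% or less at E21 and at 15.1% or more at P18. The Pvalb bars of E21 and of P6 Tg 1 and Tg 3 rest on CPM that overlap those of libraries of the same age under 10 CPM of Acta1. The same holds for the Actn3 and Actc1 bars of P6 Tg 3. It also holds for the Myh3 bars of P18 Tg 1 and Wt 1 and the Mybpc1 bar of P18 Tg 1.

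The sides hold 4 libraries each and were selected on 1 muscle gene, so genes tied to that gene had to differ and no test was made of the contrast. Bulk RNA does not tell which cells carried a transcript, and muscle left at dissection cannot be told apart from muscle RNA from another source. The count table divides reads among similar genes, which makes levels of near-identical genes uncertain. Gene lengths were not used, so the CPM of different genes do not rank their transcript numbers. The ratios at P6 and P18 rest on 4 and 3 libraries.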

How the data were processed

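The authors aligned single-end reads to rn6 with Bowtie2 2.0.2 inside RSEM 1.2.29, after CASAVA 1.8.2, and deposited RSEM expected counts per gene for 32402 genes, without normalization. Expected counts divide a read among the genes it fits, and 12.5% to 17.9% of values in a library were not whole. They were rounded, and 0 of the columns were left unused. Of a symbol with several identifiers the most abundant was used in lists.

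Genes whose normalized counts averaged 5 or more went into edgeR 4.0.16 (R 4.3.3), with TMM scaling and its quasi-likelihood F test (1 model with 6 groups and 24 libraries, Benjamini-Hochberg, 0.05). DESeq2 1.42.0 was an alternative, and figures were drawn with matplotlib 3.10.9. Promoters came from RefSeq (GRCr8), whereas the counts rest on rn6; upstream versions are from the submitters' notes. Each standard error of an edgeR fold change is the fold change (log2) over the root of F. Both tools were tested on simulated data. Single values were tested by exact permutation. Other alternatives were scalings, count minimums, pseudocount, fold minimum, muscle terms, subsets of E21 libraries, a replicate block and leaving out each library.

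Named genes were the markers Acta1, Ckm, Myh2 and Hbb, Pmp22, the most abundant and the extreme members of each list, muscle isoforms, the 15 largest and 15 lowest side differences without overlap and the 10 genes most like Acta1, both at a mean count of at least 50, and genes called between genotypes. Library totals at E21 are in the report, and the side of a library was read from its Acta1 count alone. Members and lists were chosen with earlier results of these data known. All 36 pairs of libraries within a group differed by more than counting noise (chi-square per degree of freedom 6.76 to 50.2).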

Additional observations from a re-analysis of the deposited data

Results flagged for a closer look

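Summed list levels were looked at in each group of 4 libraries for a highest or lowest library far from the other 3, by Dixon's criterion on the log2 scale. Chance gives this in about 1 of 20 groups, and 8 were found in 126.

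Of the muscle lists, the endplate genes stood out in E21 Tg replicate 2, at 127 CPM, against 67.4 to 72.8 CPM in the other 3. This is the library with the most Acta1. The excitation-contraction genes stood out in P18 Tg replicate 2, at 46.0 CPM, against 39.9 to 40.3 CPM in the other 3, where Acta1 was 0.567 CPM.

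Y-linked genes stood out in 4 groups. E21 Tg replicate 2 had 0.388 CPM, against 60.8 to 78.8 CPM in the other 3. P6 Wt replicate 1 had 0.0778 CPM, against 65.8 to 131 CPM in the other 3. P18 Tg replicate 3 had 0.299 CPM, against 124 to 136 CPM in the other 3. P18 Wt replicate 1 had 116 CPM, against 0.181 to 0.572 CPM in the other 3. The other 7 E21 libraries had 48.9 to 176 CPM, and a part of sex in the side differences was not tested.

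Adipocyte genes in P18 Wt replicate 4 were at 371 CPM, against 565 to 599 CPM in the other 3. Epidermis genes in P18 Tg replicate 4 were at 6.75 CPM, against 10.5 to 10.9 CPM in the other 3.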

How the results depend on the processing

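The count of genes higher on the muscle-rich side was 204 and stayed within 1.5 times of it with other scalings (203 and 204), no count minimum (204), a mean count of at least 20 (183), a pseudocount of 2 (156) and any 1 library left out (180 to 238). A 4-fold minimum gave 129. Genes lower on that side numbered 1, and 1 to 10 with a library left out (10 without Wt 1, 9 without Tg 4, 5 without Tg 1, 4 without Tg 3, 3 without Tg 2 or Wt 2, 2 without Wt 4), where fewer libraries leave fewer chances to overlap. For genotype at E21, the 2 genes called became 17 with DESeq2, 1 with E21 libraries alone, 1 with the muscle side as a term, 1 with Acta1 as a covariate and 0 with muscle-poor E21 libraries alone (2 with muscle-rich E21 libraries alone), and 2 to 4 with a library left out (4 without Tg replicate 3). The cause of these differences was not tested. With muscle-rich E21 libraries alone, the 2 genes called included AC130064.1 but not Hspg2. Muscle genes lower at P6 were 78, 67 to 79 with a library left out, and 11 with muscle-poor E21 libraries alone. Muscle genes lower at P18 were 3, but 7 with DESeq2, 5 with library totals, 9 with muscle-poor and 5 with muscle-rich E21 libraries only, and 2 to 3 with a P6 or P18 library left out. The muscle relation at P18 ran from 0.651 to 0.968 with a library left out, lowest without P18 Wt replicate 2. The genotype difference of the summed muscle lists ran from -0.91 without Tg replicate 2 to 0.37 without Wt replicate 4, and was above 0 without Tg 1, Tg 4, Wt 2 or Wt 4. Library totals moved the median P18 against P6 change of all genes from -0.02 to -0.14.

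With the replicate number as a replicate block over all ages, 2 genes and 0 muscle genes were called between genotypes at E21, 72 muscle genes were lower at P6 and 4 at P18. With the replicate block in a fit of the E21 libraries alone, 3 genes and 0 muscle genes were called, against 1 gene in that fit without the block. Deviations of same-numbered E21 libraries had correlations of 0.369, 0.366, -0.153 and -0.382 for replicates 1 to 4. Replicates 1 and 2 fell on the same muscle side in both genotypes, and replicates 3 and 4 on opposite sides. The check therefore cannot tell whether the numbers pair the libraries, and no conclusion is drawn from it.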

Other observations

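Car3, among the genes most like Acta1 at E21, did not stay with it. Relative to Acta1 it stood at 20.3, 21.3, 33.6 and 28.5% in the muscle-rich E21 libraries, at 541, 3416, 277 and 272% in P6 Tg 1, Tg 3, Wt 1 and Wt 2, and at 4225, 3686 and 327% in P18 Tg 1, Wt 1 and Wt 2. Adipocytes express Car3 too, and the adipocyte list, which does not hold it, summed to 91.2 to 131 CPM at E21, 160.4 to 523 CPM at P6 and 159.5 to 619.6 CPM at P18. Which cells carried Car3 was not tested.

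Rps27a, a ribosomal protein gene with near-identical copies, was among the 204 genes higher on the muscle-rich side and was chosen after its values were seen. It measured 54.3, 52.7, 63.2 and 47.3 CPM on the muscle-rich side and 46.6, 0, 40.0 and 0 CPM on the muscle-poor side, and its level is uncertain for the same reason as that of LOC100910990.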
